A study of Mus musculus with 2 samples.

Results

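Fibrillar collagens are the rod-shaped proteins that bundle into the fibres of skin, tendon and tumour stroma. Each molecule is a triple helix of chains that are folded and hydroxylated in the endoplasmic reticulum, exported as procollagen, trimmed outside the cell and cross-linked into fibrils. Fibroblasts are their main source in skin and in tumours, where cancer-associated fibroblasts lay down much of the matrix. The 7 genes described here encode the chains of types I, III, V and XI. They are 7 of the 31053 genes listed in the data.

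The data are raw UMI counts, one count per captured transcript molecule, from single-cell RNA sequencing of small subcutaneous B16F10 tumours. B16F10 is a mouse melanoma cell line of C57BL/6 origin. The WT library came from Atf4 WT/WT hosts and the KO library from Atf4 Δ/Δ hosts, with 2 tumours pooled in each, from male and female mice that the labels give as 11 weeks old. ATF4 is the transcription factor of the integrated stress response. Per the study the deletion is global and was induced with tamoxifen in C57BL/6 mice carrying a Rosa26 CreERT2 allele and floxed Atf4. The study's WT mice carried the same CreERT2 allele without floxed Atf4 and were given tamoxifen too. The injected melanoma cells keep their own Atf4 in both groups. In fibroblast-like cells Atf4 stood at 255 CPM (UMIs of the gene scaled to 1e6 UMIs of the class) in WT (183 UMIs) and 44.9 CPM in KO (41 UMIs). There was 1 library per genotype, so no difference below has a replicate check or a test. All intervals are at 95% and cover counting error only.

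Cells were assigned to classes by marker genes, none of which is a collagen. A fibroblast-like cell had UMIs of at least 4 of 18 fibroblast markers and passed the gate of no other class. This gave 183 of 3861 kept cells in WT and 225 of 3557 in KO, with a median of 3740 and 3732 UMIs per cell. The summed fibroblast markers had a median of 137 per 10000 UMIs in the WT cells and 110 in the KO cells, against 1.08 and 0.969 in melanoma-like cells. All 18 fibroblast markers had UMIs in both libraries, whereas melanoma markers, which free RNA can also give, summed to 695 CPM in WT and 657 CPM in KO fibroblast-like cells. Near the edge of the gate, 5 WT and 7 KO cells were inside with exactly 4 markers and 129 and 113 cells were outside with 3. The labels describe both pools as male and female, yet WT fibroblast-like cells held 0 UMIs of 4 Y-linked genes, which allows up to 4.18 CPM, and KO cells held 71 UMIs (77.8 CPM). Values within cells of one sex are therefore given beside the main ones.

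Col1a1 and Col1a2 encode the alpha-1 and alpha-2 chains of type I collagen, the main collagen of skin. Col1a1 lies on chromosome 11 (94936224 to 94953042, GRCm38) and Col1a2 on chromosome 6 (4504814 to 4541544). Col3a1, the chain of the type III homotrimer that is mixed into the same fibrils, lies on chromosome 1 (45311538 to 45349706), and Col5a2 follows it on the opposite strand (45374321 to 45503282). Col5a1 on chromosome 2 (27886425 to 28039514), Col5a2 and Col5a3 on chromosome 9 (20770050 to 20815067) encode type V chains, which sit inside type I fibrils and are needed to start them. Col11a1 on chromosome 3 (114030540 to 114220718) encodes a chain of type XI collagen, the cartilage relative of type V. All 7 are protein coding, and 5 of them overlap a small predicted or non-coding gene in the annotation, with which reads could be shared. UMIs count transcript 3′ ends and do not scale with transcript length, so levels of different chains are compared here as UMIs, within the limit that 3′ capture can differ between genes.

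Some of the promoter windows that could be read held the same motifs, and others did not. Upstream sequence was available in the RefSeq table (GRCm38.p6) for 5 of the 7, namely Col3a1, Col5a1, Col5a3, Col11a1 and Col1a2, and the 250 bases before the RefSeq start were searched on both strands for 5 motifs. These were the C/EBP-ATF composite element TGATGNAA, the CCAAT box, the SP1 box with the letters GGGCGG, the TATA-like motif TATAAA, and the AP-1 motif, which reads TGA, any base and then TCA. No match of one motif overlapped a match of another in the windows shown. The windows of Col3a1, the most abundant chain, of Col5a1, the abundant chain with the lowest KO/WT ratio, and of Col5a3, the one chain that was higher in KO, are shown 5′ to 3′ on the gene's strand, with motif matches on either strand in capitals. They are chr1:45311288-45311537 on the plus strand, chr2:27886175-27886424 on the plus strand and chr9:20815068-20815317 on the minus strand.
Col3a1: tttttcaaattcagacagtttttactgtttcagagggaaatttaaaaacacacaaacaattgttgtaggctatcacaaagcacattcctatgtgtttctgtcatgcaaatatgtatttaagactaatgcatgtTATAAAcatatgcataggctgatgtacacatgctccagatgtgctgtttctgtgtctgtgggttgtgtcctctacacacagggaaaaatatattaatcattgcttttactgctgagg
Col5a1: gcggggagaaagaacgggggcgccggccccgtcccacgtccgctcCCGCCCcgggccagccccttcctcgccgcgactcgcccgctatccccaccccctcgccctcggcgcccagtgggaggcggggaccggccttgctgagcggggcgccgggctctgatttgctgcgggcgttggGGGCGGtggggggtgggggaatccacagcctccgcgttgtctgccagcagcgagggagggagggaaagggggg
Col5a3: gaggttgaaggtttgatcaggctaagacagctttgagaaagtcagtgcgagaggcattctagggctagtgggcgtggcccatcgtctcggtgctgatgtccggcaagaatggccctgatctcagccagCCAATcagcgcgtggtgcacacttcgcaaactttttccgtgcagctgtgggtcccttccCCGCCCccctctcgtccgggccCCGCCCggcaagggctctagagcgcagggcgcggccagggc
Col3a1 held 1 TATAAA match at position -117 from the start and none of the other motifs. Col5a1 held 2 GGGCGG matches, of which the one on the gene's strand is at -73, in a window rich in G and C. Col5a3 held a CCAAT match at -122 and 2 GGGCGG matches. The windows of Col1a2 and Col11a1, which are not shown, also held 1 CCAAT and 2 GGGCGG matches each. TGATGNAA was found in 0 of the 5 windows and in 3.45% of the 32851 windows of the table, and the AP-1 motif in 0 of the 5 and 6.75%. CCAAT was present in 3 of the 5 (33.8% of all windows) and GGGCGG in 4 of the 5 (32.7%). For Col1a2 the RefSeq start lies 804 bases past the annotated gene start given above, so its window is inside the gene span. No match says only that these letters are not in these 250 bases.

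Fibrillar collagen transcripts were mostly in fibroblast-like cells, which were 4.74% of the kept cells in WT and 6.33% in KO. They held 82.1% of the UMIs of the 7 genes among kept cells in WT and 88.1% in KO. The 7 genes summed to 45856 CPM in WT and 32129 CPM in KO fibroblast-like cells. In WT the sum was 253 CPM (195 to 321) in 67 endothelial-like cells, 97.3 CPM (86.3 to 109) in 1371 macrophage/monocyte-like cells and 45.1 CPM (42.1 to 48.2) in 1710 melanoma-like cells. These are 0.551%, 0.212% and 0.0983% of the fibroblast level. In KO the sum was 93.0 CPM (40.2 to 183) in 23 endothelial-like, 120 CPM (106 to 136) in 1007 macrophage/monocyte-like and 54.5 CPM (51.4 to 57.9) in 1850 melanoma-like cells. The endothelial and macrophage/monocyte intervals overlapped in KO and not in WT. The other gated immune and erythroid classes held 0 to 5 UMIs of the 7 genes in each library.

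**Figure D1:**
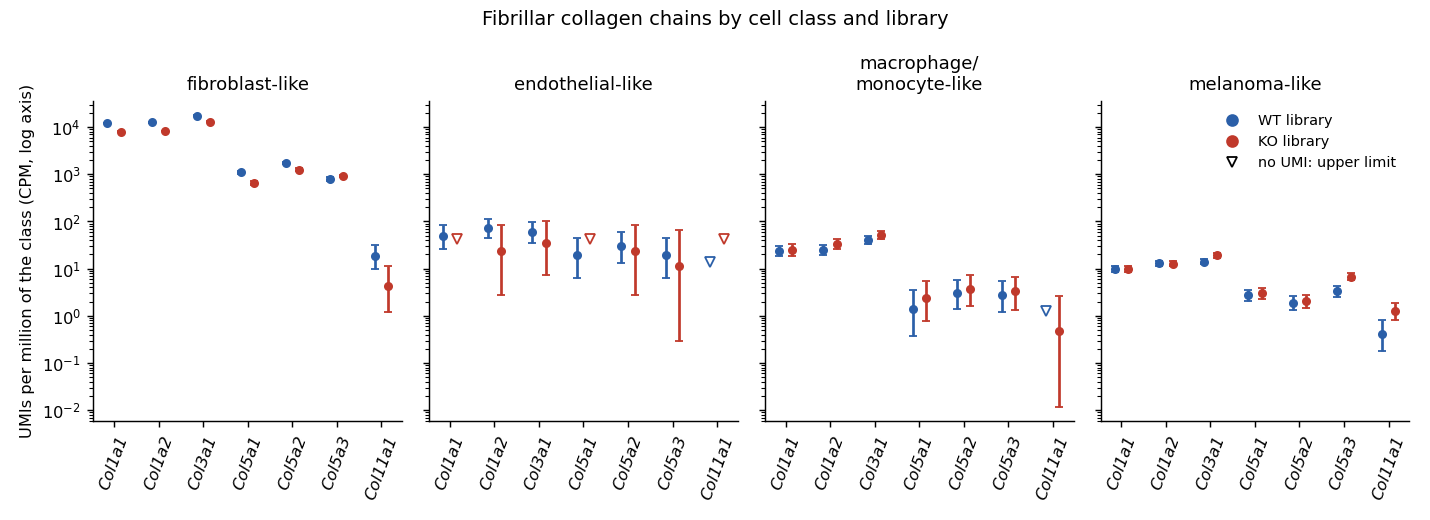
Level of each of the 7 chains, in CPM on a log axis, in 4 marker-gated classes of the WT (blue) and KO (red) library. Points are pooled class levels, bars are exact 95% Poisson intervals and open triangles are upper limits where a chain had no UMI. The 6 chains other than Col11a1 stood between 656 and 17432 CPM in fibroblast-like cells and at or under 72.7 CPM in the other 3 classes.

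Shares of positive cells gave the same picture. After each cell was thinned to 2000 UMIs, Col1a1, Col1a2 and Col3a1 were each seen in 157 of 157 WT fibroblast-like cells, and in 185, 186 and 184 of 192 KO cells. In melanoma-like cells thinned to the same depth, a class that should lack it, Col3a1 was seen in 2.89% of WT and 3.05% of KO cells (median UMIs before thinning 11392 and 10767). Of the minor chains, Col5a2 was seen in 94.3% of WT and 83.9% of KO fibroblast-like cells, Col5a1 in 82.8% and 64.1% and Col5a3 in 64.3% and 72.4%. The intervals of the WT and KO shares did not overlap for Col5a1 (76.0% to 88.4% and 56.8% to 70.8%) or Col5a2 (89.4% to 97.3% and 77.9% to 88.8%). They overlapped for Col5a3 (56.3% to 71.8% and 65.5% to 78.6%).

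The order of the chains in WT fibroblast-like cells was Col3a1 (17432 CPM), Col1a2 (12605 CPM), Col1a1 (12181 CPM), Col5a2 (1725 CPM), Col5a1 (1094 CPM), Col5a3 (801 CPM) and Col11a1 (18.1 CPM). In KO it was Col3a1 (12958 CPM), Col1a2 (8275 CPM), Col1a1 (8062 CPM), Col5a2 (1255 CPM), Col5a3 (919 CPM), Col5a1 (656 CPM) and Col11a1 (4.38 CPM). The type I neighbours Col1a2 and Col1a1 had overlapping intervals in both libraries, and Col5a1 and Col5a3 exchanged places between them with intervals that did not overlap in either. Col3a1 made up 38.0% of the 7 genes' UMIs in WT and 40.3% in KO, Col1a1 26.6% and 25.1% and Col1a2 27.5% and 25.8%.

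The comparison of KO with WT hosts asked how host ATF4 relates to the fibroblasts' collagen transcripts. Of the 7 chains, 6 were lower in KO fibroblast-like cells and 1, Col5a3, was higher. With 4 of 7 at least 1.5-fold lower and 0 at least 1.5-fold higher, the count stands beside a background of 16.2% of 7216 genes (those with at least 20 UMIs) that were lower by that fold and 12.8% that were higher. Col11a1 is one of the 4 and is below that UMI minimum, so 3 of the 6 chains that pass it were lower by the fold. The median log2 KO/WT ratio was -0.60 over the 7 chains, -0.53 over the 6 past the UMI minimum and -0.05 over all 7216 genes. Among the 1233 genes with at least 200 UMIs, whose ratios scatter less, 9.25% were lower by the fold. Col1a1 and Col1a2 lay just past the fold of 1.5, at 1.51-fold and 1.52-fold, so the count of 4 turns on small shifts in scaling.

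The type I chains differed by the same amount within counting error. Col1a1 had a log2 KO/WT ratio of -0.60 (-0.64 to -0.55) on 8742 WT and 7362 KO UMIs, and Col1a2 of -0.61 (-0.65 to -0.56) on 9046 and 7556. The ratio of Col1a1 to Col1a2 UMIs was 0.966 in WT and 0.974 in KO, with overlapping intervals (0.938 to 0.995 and 0.943 to 1.01), although the type I molecule holds a pair of alpha-1 chains to one alpha-2. Col3a1 differed less than type I, with a log2 ratio of -0.43 (-0.46 to -0.39) on 12510 and 11832 UMIs. The ratio of Col3a1 to Col1a1 UMIs was accordingly 1.43 (1.39 to 1.47) in WT and 1.61 (1.56 to 1.65) in KO.

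The type V chains differed from each other in direction. Col5a1 had a log2 KO/WT ratio of -0.74 (-0.89 to -0.58) on 785 and 599 UMIs, and Col5a2 of -0.46 (-0.58 to -0.34) on 1238 and 1146 UMIs. Col5a3, which joins the other two in a variant type V molecule, had a ratio of 0.20 (0.04 to 0.35) on 575 and 839 UMIs. The ratio of Col5a3 to Col5a1 UMIs was 0.732 (0.657 to 0.817) in WT and 1.40 (1.26 to 1.56) in KO, and that of Col5a1 to Col5a2 was 0.634 (0.579 to 0.694) and 0.523 (0.473 to 0.577). Col11a1 was rare in fibroblast-like cells, with 13 UMIs in WT and 4 in KO, a log2 ratio of -2.05 (-4.12 to -0.35).

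Host sex and the mixed cells bear on these values. In the cells that showed Xist but no Y-linked gene (149 WT and 58 KO), the log2 ratio of the sum of the 7 was -0.55 (-0.59 to -0.51), against -0.51 (-0.54 to -0.49) in all fibroblast-like cells. Set against the same WT cells, the 50 KO cells with a Y-linked and no Xist UMI had a ratio of -0.53 (-0.57 to -0.50). Col5a3 stood at 0.12 (-0.14 to 0.38) and 0.36 (0.15 to 0.58) in these sets, so its higher level in KO was within counting error in the first. A further 42 WT and 25 KO cells passed the fibroblast gate and another gate, with a median of 10242 and 7897 UMIs, and were left out. Of these, 20 WT and 17 KO cells passed the melanoma gate and 13 and 5 the endothelial gate. The 7 genes stood at 13901 CPM in the 42 and 10209 CPM in the 25, and with these cells included the log2 ratio of the sum was -0.30 and 1 of the 7 chains was at least 1.5-fold lower. Their part in the difference was not tested.

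Fibroblast subtypes were gated by markers of vascular, adventitial and activated fibroblasts, each needing at least 3 of 12. The vascular gate came first, and a cell past both other gates went to the one with more of its markers. Cells past no gate, or past both other gates with equal numbers of markers, are called remaining. The vascular gate (Rgs5, Cspg4, Notch3, Des and others) took 18 WT and 14 KO cells, the adventitial gate (Pi16, Dpp4, Cd34, Clec3b and others) 40 and 58, the activated gate (Lrrc15, Cthrc1, Postn, Fap and others) 96 and 128, and 29 and 25 cells remained. Adventitial-like cells had the most fibrillar collagen in both libraries, at 53473 CPM in WT but 42378 CPM in KO. Activated-like cells had 45727 and 31092 CPM, remaining cells 44094 and 24877 CPM and vascular-like cells 38022 and 13432 CPM. The sum was lower in KO in all 4, with log2 ratios of -0.34 (-0.38 to -0.29) in adventitial-like, -0.56 (-0.59 to -0.53) in activated-like, -0.83 (-0.91 to -0.74) in remaining and -1.50 (-1.62 to -1.39) in vascular-like cells. These 4 intervals do not overlap, and there was no test of the differences between them. In the cells that showed Xist but no Y-linked gene the ratio was -0.56 in adventitial-like, -0.57 in activated-like and -0.71 in remaining cells, so adventitial-like and activated-like cells were not apart there, and vascular-like KO cells were too few.

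**Figure D2:**
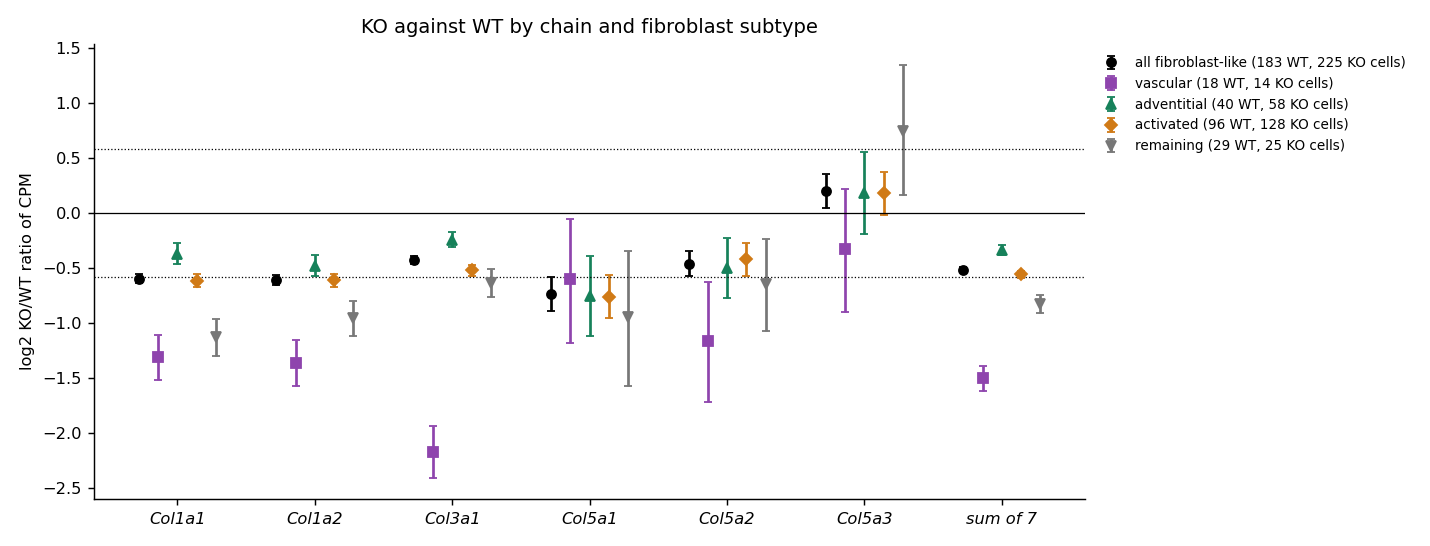
Log2 KO/WT ratio of CPM for 6 chains and for the sum of the 7 genes in all fibroblast-like cells and in 4 marker-gated subtypes. Bars are exact 95% intervals of counting error, the solid line marks no difference and dotted lines mark a fold of 1.5. Col11a1 is left out for its few UMIs. Type I and III ratios were lowest in vascular-like cells (Col3a1 at -2.17) and highest in adventitial-like cells (Col3a1 at -0.24). Col5a3 was the chain above 0 in 3 of the 4 subtypes, and its interval left out 0 in remaining cells only.

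Adventitial-like cells had the highest Col3a1 level of the 4 subtypes in both libraries. Col3a1 was at 24400 CPM in WT but 20653 CPM in KO there, against 16376 and 11406 CPM in activated-like cells. The ratio of Col3a1 to Col1a1 was 2.01 (1.89 to 2.14) in WT and 2.19 (2.08 to 2.32) in KO adventitial-like cells, and 1.30 (1.25 to 1.34) and 1.38 (1.33 to 1.43) in activated-like cells. In remaining cells it was 1.37 (1.26 to 1.48) in WT and 1.92 (1.70 to 2.18) in KO, and the KO interval overlaps that of adventitial-like cells. Col3a1 made up 45.6% of the 7 genes' UMIs in WT adventitial-like cells and 48.7% in KO, and 35.8% and 36.7% in activated-like cells. The Col3a1 difference between libraries in adventitial-like cells, a log2 ratio of -0.24 (-0.31 to -0.17), was the smallest of the 4 subtypes. No Col11a1 UMI was found in adventitial-like cells of either library, and 11 of the 13 WT UMIs of Col11a1 were in activated-like cells.

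Vascular-like cells showed the largest differences of the subtypes for the type I and III chains, Col5a2 and the sum, on few cells. Col3a1 stood at 13459 CPM in WT but 2985 CPM in KO vascular-like cells (1338 and 168 UMIs), a log2 ratio of -2.17 (-2.41 to -1.94). Col1a1 was at 10512 and 4229 CPM, a ratio of -1.31 (-1.52 to -1.11), and Col5a2 at 1469 and 657 CPM, a ratio of -1.16 (-1.72 to -0.63). Col5a1 was at -0.60 (-1.18 to -0.05), with an interval that overlapped those of the other subtypes. It was at -0.76 (-1.12 to -0.39) in adventitial-like, -0.76 (-0.95 to -0.56) in activated-like and -0.94 (-1.57 to -0.34) in remaining cells. Col5a3 did not differ beyond counting error, at -0.33 (-0.90 to 0.22). The ratio of Col3a1 to Col1a1 UMIs was 1.28 (1.18 to 1.39) in WT and 0.706 (0.576 to 0.864) in KO, the one set of fibroblast-like cells in which Col1a1 was the more abundant. The fibrillar collagen level per cell ran from 64.6 to 909 per 10000 UMIs in the 18 WT cells (median 368) and from 2.10 to 413 in the 14 KO cells (median 119), so the libraries overlapped. Other genes differed between these cells too: vascular markers summed to 1579 CPM in WT and 2754 CPM in KO, activated markers to 3782 and 1688 CPM and cell cycle markers to 2806 and 515 CPM. Of the KO cells 6 had a Y-linked UMI and 2 had Xist without one. The part of these in the collagen difference was not tested.

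**Figure D3:**
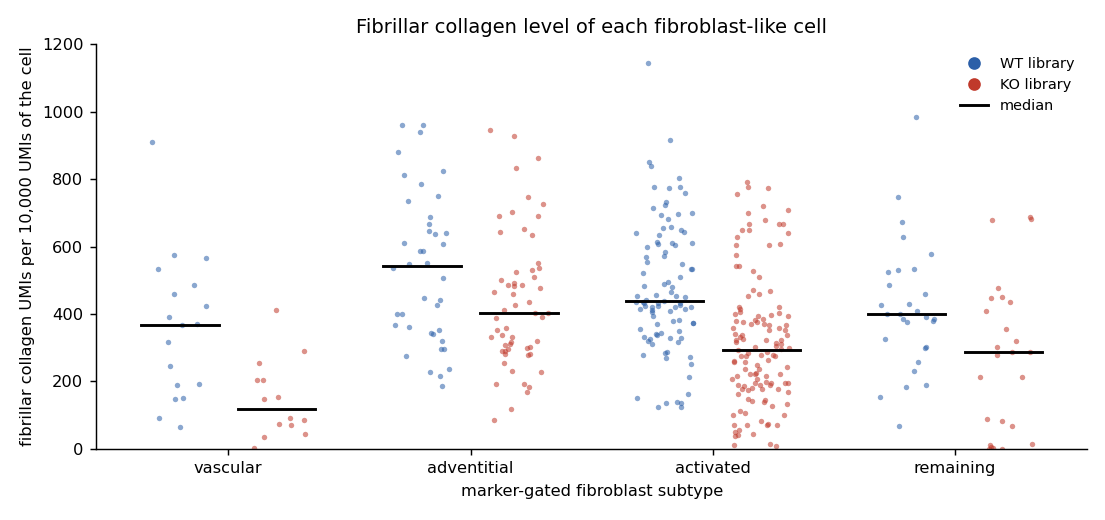
UMIs of the 7 fibrillar collagen genes per 10,000 UMIs of each fibroblast-like cell, by subtype and library, with black lines at the medians. Points are single cells of 1 library per genotype and are not replicates, and their horizontal scatter carries no value. The WT median was above the KO median in each subtype, and cells near 0 were seen in KO.

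KO cells were lower at the bottom, in the middle and at the top of the distribution. Over all fibroblast-like cells the summed level per 10000 UMIs had a lowest value, median and highest value of 64.6, 433 and 1144 in WT and 0, 306 and 946 in KO, so the libraries overlapped over most of their range. The tenth percentile was 213 in WT and 71.7 in KO. In WT 0 cells lacked Col1a1, Col1a2 or Col3a1, while 8, 5 and 10 of the 225 KO cells had no UMI of them. In KO 17 cells (7.56%) lay under the lowest WT cell, 8 of them activated-like, 6 remaining, 3 vascular-like and 0 adventitial-like. These 17 cells had a median of 3003 UMIs against 3774 in the other KO cells, fibroblast markers at 72.7 against 114 per 10000 UMIs and melanoma markers at 9.47 against 5.73 per 10000. The fibroblast list includes the pericyte markers Rgs5, Cspg4 and Notch3, which were higher in the 17 cells. The other markers of the list were lower there, among them Pdgfrb, also a pericyte marker, at 68.5 against 113 CPM. Rgs5 was at 342 against 10.5 CPM, Cspg4 at 51.3 against 17.5 CPM and Notch3 at 68.5 against 26.9 CPM, on 20, 3 and 4 UMIs in the 17 cells. Their part in the difference was not tested. At a fixed depth of 2000 UMIs per cell the log2 ratio of the sum was -0.50.

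Within single cells the type I chains tracked each other. Spearman's rho of Col1a1 with Col1a2, per 10000 UMIs, was 0.81 over 183 WT and 0.87 over 225 KO cells. Col3a1 followed Col1a1 with a rho of 0.55 in WT and 0.71 in KO, and Col5a1 followed it with 0.47 and 0.44. Col5a3 had a rho to Col1a1 of 0.21 in WT and 0.35 in KO, and Col11a1, with few UMIs, of 0.13 and -0.01. These are descriptions of cells of 1 library that share depth and free RNA, and sparse counts lower rho for the rarer chains. The 19 WT and 23 KO cells with the most Col3a1 UMIs held 25.5% and 28.0% of them.

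**Figure D4:**
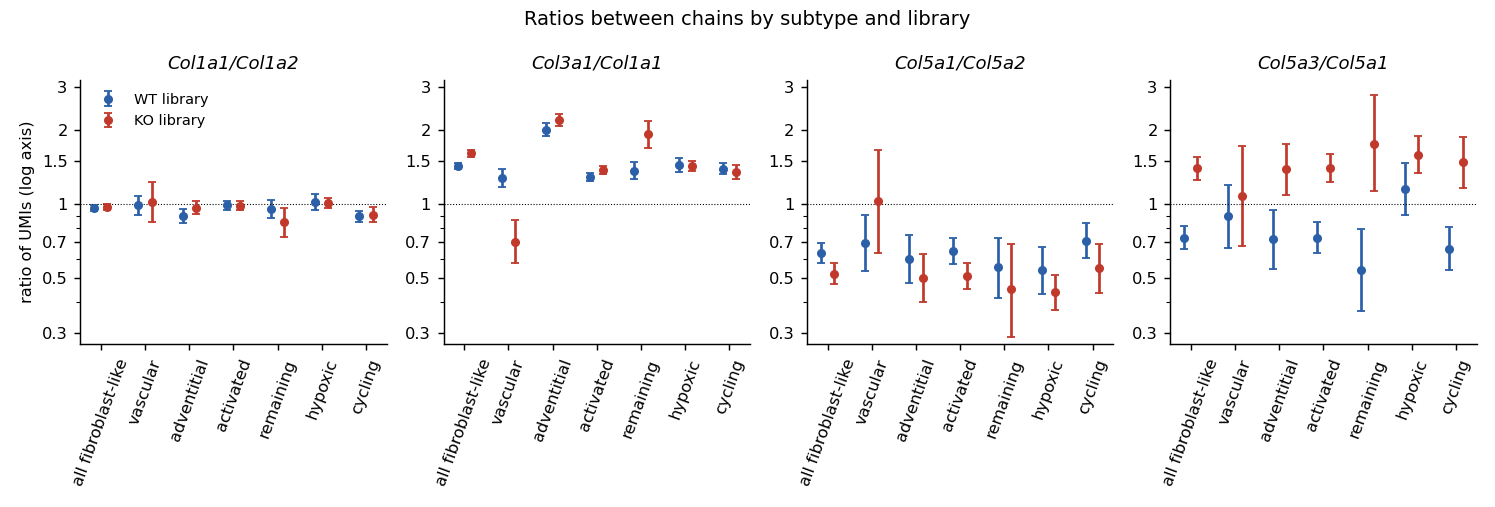
Ratio of UMIs between pairs of chains, on a log axis, in all fibroblast-like cells, the 4 exclusive subtypes and the overlapping hypoxic and cycling sets of the WT (blue) and KO (red) library. Bars are exact 95% intervals of counting error. Col1a1/Col1a2 stayed between 0.846 and 1.02 in all 14 sets. Col5a3/Col5a1 was above 1 in all 7 KO sets, with an interval that included 1 in vascular-like cells. Among the WT sets it was above 1 in hypoxic cells only, where the interval also included 1.

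The balance of the type V chains differed between the libraries within most subtypes. The ratio of Col5a3 to Col5a1 was 0.723 in WT and 1.38 in KO adventitial-like cells, 0.733 and 1.41 in activated-like cells and 0.543 and 1.76 in remaining cells, with no overlap of the intervals in any of these. In vascular-like cells it was 0.892 (0.665 to 1.20) and 1.08 (0.677 to 1.72), which overlap. Cells were also grouped by at least 3 of 10 hypoxia markers (30 WT and 79 KO cells) and by at least 3 of 12 cell cycle markers (44 and 35). The sum of the 7 had a log2 KO/WT ratio of -0.34 (-0.39 to -0.30) in hypoxic cells and -0.52 (-0.55 to -0.50) in the others, and -0.59 (-0.64 to -0.54) in cycling cells and -0.53 (-0.55 to -0.50) in the others. The ratio of Col5a3 to Col5a1 in hypoxic cells was 1.16 (0.906 to 1.48) in WT and 1.59 (1.34 to 1.89) in KO, which overlap. Col5a3 was at 1022 CPM in WT but 889 CPM in KO hypoxic cells, a ratio of -0.20 (-0.48 to 0.09), and at 745 and 941 CPM in the other cells, a ratio of 0.34 (0.15 to 0.53). The Col5a3 ratio of the hypoxic cells thus lay below 0 within counting error, and that of the others above it.

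In melanoma-like cells the minor chains were in other proportions than in fibroblasts. Col11a1 had 8 UMIs in WT and 25 in KO melanoma-like cells, so in KO more of its UMIs were in melanoma-like than in fibroblast-like cells, although its level was lower there (1.24 CPM against 4.38 CPM). The ratio of Col11a1 to Col5a1 was 0.151 (0.0620 to 0.320) in WT and 0.417 (0.250 to 0.675) in KO melanoma-like cells, against 0.0166 (0.00878 to 0.0285) and 0.00668 (0.00181 to 0.0172) in fibroblast-like cells. Col5a3 had 64 and 137 UMIs, and its ratio to Col5a1 was 1.21 (0.826 to 1.77) and 2.28 (1.67 to 3.15), above that of fibroblast-like cells in both libraries without overlap. The part of free RNA and of fibroblast transcripts in these UMIs was not tested. After thinning Col5a3 was seen in 0.493% of WT and 1.41% of KO melanoma-like cells and Col11a1 in 0 of 1624 and 4 of 1768 cells. Type I chains did not differ between the melanoma-like cells of the libraries beyond counting error, with log2 ratios of 0.01 (-0.29 to 0.30) for Col1a1 and -0.03 (-0.29 to 0.22) for Col1a2.

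The 4 fibrillar collagen genes outside the 7 were sparse in fibroblast-like cells. Col27a1, a widely expressed minor fibrillar collagen, had 65 UMIs in WT and 37 in KO, a log2 ratio of -1.16. Col24a1 had 2 and 6 UMIs, Col11a2 0 and 1, and the cartilage collagen Col2a1 0 in both.

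Lists of genes that make and handle collagen held members on both sides of 0. Of 19 folding and hydroxylation genes 17 passed the UMI minimum, and 3 were at least 1.5-fold lower and 1 higher in KO, with a median log2 ratio of -0.12. Serpinh1, the collagen chaperone HSP47, was at 2990 CPM in WT but 1438 CPM in KO, a ratio of -1.06. P3h4, a partner of the lysyl hydroxylases, was at -0.97 and Plod1, a lysyl hydroxylase, at 0.57, which is short of the fold. Of 11 measured genes of procollagen export and propeptide removal 2 were lower by the fold and 0 higher, with Pcolce, the enhancer of C-propeptide removal and also a marker in the fibroblast gate, at -0.51, Sec13 of the export coat at -0.26 and Adamts2, the N-propeptidase, at -0.25.

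Of 13 measured genes of cross-linking and fibril assembly 3 were at least 1.5-fold lower and 1 higher, with a median of -0.32. Col12a1 and Col14a1 are fibril-associated collagens. Col12a1 was at -1.01, Col14a1 had 322 CPM in WT cells and 161 CPM in KO cells, and Lum, a small proteoglycan that binds fibrils and is also a gate marker, at -0.81. Lox, the lysyl oxidase that cross-links fibrils, was the one higher, at 851 CPM in WT but 1313 CPM in KO, a ratio of 0.63. It was named after its value was seen. Of 5 measured collagen receptors 2 were lower, with Mrc2, an endocytic collagen receptor, at -0.71, Itga1, an integrin subunit, at -0.59 and Ddr2, a collagen-binding kinase, at 0.38. Of 8 genes of collagen degradation and its inhibitors 1 was lower, with Timp3 at -0.80, the protease Mmp14 at -0.57 and Ctsk at -0.55. Of 15 genes of TGFβ signalling and collagen regulation 6 were lower and 1 higher, with a median of -0.44, among them Ctgf, a TGFβ-induced matrix protein, at -1.24, Tgfb1 at -0.61 and the co-receptor Tgfbr3 at 0.76. These counts stand beside the 16.2% of all genes that were lower by the fold and the 12.8% that were higher, and with 5 to 17 measured genes per list nothing particular to a list is read from them.

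The genes most like the fibrillar collagens were chosen by Pearson's r of log2(CPM + 10) with the sum of the 7 over 17 overlapping pools of cells, classes and fibroblast subtypes of both libraries. They were the non-coding RNA Snhg18 (r = 0.995), Fbn1, the microfibril protein fibrillin-1 (0.989), Mrc2 (0.989), Il1r1, the interleukin-1 receptor (0.989), and Loxl1, a lysyl oxidase relative (0.988). The pools share cells and libraries and r is set mostly by fibroblast-like against other cells. In fibroblast-like cells the log2 KO/WT ratio of these 5 was -0.04 for Snhg18, -0.02 for Fbn1, -0.71 for Mrc2, -0.19 for Il1r1 and -0.19 for Loxl1. Of the 7 members r with the sum was 0.988 to 0.998 for 6 and 0.639 for Col11a1.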

How the data were processed

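Single-cell suspensions of B16F10 tumours were sequenced with 10x Genomics 3′ chemistry, for which the labels and the methods name different kit versions. The authors made the deposited matrices of raw UMI counts per gene and barcode with Cell Ranger (3.1.0 in the submitters' processing notes, another version in the methods) on GRCm38. No normalised values were used.

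Barcodes were kept at 200 to 5000 detected genes and a mitochondrial share up to 7.5%. The libraries held 38417113 UMIs in 6304 barcodes (WT) and 38290024 in 5474 (KO), and shared 10 barcodes. Kept cells had a median of 3920 and 6279 UMIs. Cells were gated, not clustered, by the number of class markers seen and their summed level, with at least 4 fibroblast markers and 10 UMIs of them per 10000. Cells past more than 1 gate were left out as possible doublets, and no doublet caller was run. The gates were set after marker levels, but not collagen levels, had been seen, and class names are only as good as these gates.

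Class sums were scaled to CPM. Sums have exact Poisson, shares exact Clopper-Pearson and KO/WT ratios exact conditional binomial intervals at 95%, which cover counting error only. For ratios over all genes, those with at least 20 UMIs were used, with a fold of 1.5. A count of 0 allows up to 3 counts. Named genes were all members and, per list, the 3 genes with the largest absolute log2 ratio among those with at least 100 UMIs. Likeness used genes with at least 200 UMIs. Members and lists were chosen with earlier results of these data known. Gene positions came from GENCODE vM21. The ratio step was tested on simulated data. Scipy 1.17.1, pandas 2.3.3 and numpy 2.4.6 were run under Python 3.11.15, and TMM factors came from edgeR 4.0.16 in R 4.3.3. Alternatives changed the cell filters, gates, scaling, depth, free RNA, host sex and subtype mix.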

Additional observations from a re-analysis of the deposited data

Results flagged for a closer look

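Some KO/WT log2 ratios lay above 0 in one cell class and below 0 in another, each with an interval of counting error that left out 0. Col3a1 was at 0.43 in melanoma-like cells and -0.43 in fibroblast-like cells. Col11a1 was at 1.59 in melanoma-like cells on 8 WT and 25 KO UMIs, and at -2.05 in fibroblast-like cells on 13 and 4 UMIs. The sum of the 7 genes was at 0.27 in melanoma-like and 0.30 in macrophage/monocyte-like cells, against -0.51 in fibroblast-like and -1.44 in endothelial-like cells, the last on 66 and 8 UMIs. With 1 library per genotype these differences between classes were not tested. In these 3 other classes the sum was at or under 253 CPM, and the part of free RNA and of other cells in the same droplet was not tested.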

How the results depend on the processing

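No paired analysis was possible because there is 1 library of WT and 1 of KO and no result comes from a test, and for the same reason no replicate could be left out. In 17 alternatives, 3 of them chosen after seeing the data, the log2 KO/WT ratio of the sum and of the 6 lower chains stayed below 0 and that of Col5a3 above 0 (0.12 to 0.38). The range was -0.67 to -0.37 for Col1a1, -0.67 to -0.41 for Col1a2, -0.49 to -0.21 for Col3a1, -0.88 to -0.55 for Col5a1, -0.65 to -0.28 for Col5a2 and -2.47 to -1.03 for Col11a1. Lifting the upper limit on genes kept the same 183 WT and 225 KO cells and so could not move any value. TMM and leaving the members, or mitochondrial and ribosomal protein genes, out of the total each shifted all chains by one shared amount. The sum left its counting interval with a stricter gate (-0.55), without the 10% of cells highest in UMIs (-0.43), without mitochondrial and ribosomal protein genes in the total (-0.48), under TMM (-0.46), in cells with Xist and no Y-linked UMI (-0.55), at the same subtype mix (-0.57) and with cells of 2 gates included (-0.30, chosen after seeing the data). The number of chains at least 1.5-fold lower was 2 without the cells highest in UMIs, without mitochondrial and ribosomal protein genes and under TMM, and 1 with cells of 2 gates included. It was 3 without the 10% of cells highest in melanoma markers, with cells weighted equally, with free RNA subtracted, when thinned to 2000 UMIs and without vascular-like cells, and 4 in the others. By subtype, the stricter gate gave -1.22 for vascular-like, -0.63 for activated-like, -0.92 for remaining, -0.44 for hypoxic and -0.79 for cycling cells, and 31088 CPM for the sum in KO. A 15% mitochondrial limit gave -1.36 for vascular-like cells. In cells with Xist and no Y-linked UMI adventitial-like cells were at -0.56 and remaining cells at -0.71. With cycling cells left out, adventitial-like cells were at -0.27 and hypoxic cells at -0.41. Vascular-like and cycling cells had under 10 KO cells with Xist and no Y-linked UMI and were not run there. With cycling cells left out, vascular-like cells were under 10 in a library and were not run either. Why these values moved was not tested. The stricter and looser gates changed the gates of all classes, so fibroblast-like cells could enter as well as leave. The stricter gate held 185 WT and 226 KO fibroblast-like cells, against 183 and 225 in the main setting. Depth limits Col11a1 and all chains outside fibroblast-like cells.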
